A study of Homo sapiens with 15 samples.

Results

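The comparison set 3 arrays of THP-1 cells exposed to infliximab for 24 h against 3 arrays of the same line exposed for 6 h, 6 of the 15 arrays of the study. THP-1 cells are a human monocytic leukaemia line used as a model of monocytes. Infliximab is a chimeric IgG1 antibody that binds tumour necrosis factor (TNF). The other 9 arrays held cells exposed for 24 h or 6 h to CDP870 (certolizumab pegol), a PEGylated antibody fragment against TNF without an Fc part, and untreated cells at 0 h, with 3 arrays each. No other treatment or genetic change is given for any group, and all came from 1 cell line, so donors were not sampled. An untreated culture harvested at 6 h or 24 h was not analysed here, so time in culture and time with the antibody cannot be told apart. The labels number the arrays, and infliximab 24 h holds arrays 5, 6 and 7 and infliximab 6 h arrays 8, 9 and 10. Every value below is a log2 probe set value, so a difference of 1 is a doubling, and levels are compared within a probe set only. Of 54613 non-control probe sets, the 28897 that lay above the array median on at least 3 of the 15 arrays were tested.

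Several of the genes that differ most from 0 h in these cells are known targets of the integrated stress response. In that response, phosphorylation of the initiation factor eIF2 slows general translation while the transcription factor ATF4 is made and switches on genes of amino acid synthesis, transport and redox balance. In monocytes, antibodies against TNF can act by neutralising soluble TNF, by binding TNF on the cell surface and, where an Fc part is present, through Fc receptors.

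The 6 infliximab arrays did not fall into their labelled times. Array 7, labelled 24 h, lay as close to each 6 h array as these lay to each other, whereas arrays 5 and 6 stood apart from it, from the 6 h arrays and from one another. The SD of the log2 differences over all tested probe sets was 0.20 between arrays 7 and 8, 0.19 between arrays 7 and 9 and 0.21 between arrays 7 and 10. Among the 6 h arrays it was 0.21 to 0.22. Array 5 lay at 0.39 to 0.46 from each of the other 5, and array 6 at 0.34 to 0.40 from arrays 7 to 10. Only 3, 4 and 15 probe sets differed by more than 1 between array 7 and arrays 8, 9 and 10, against 14 to 36 between 6 h arrays. Between array 5 and the other 5 arrays 558 to 938 did so. The median SD of a probe set within a group was 0.17 at infliximab 24 h and 0.11 at infliximab 6 h.

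**Figure D1:**
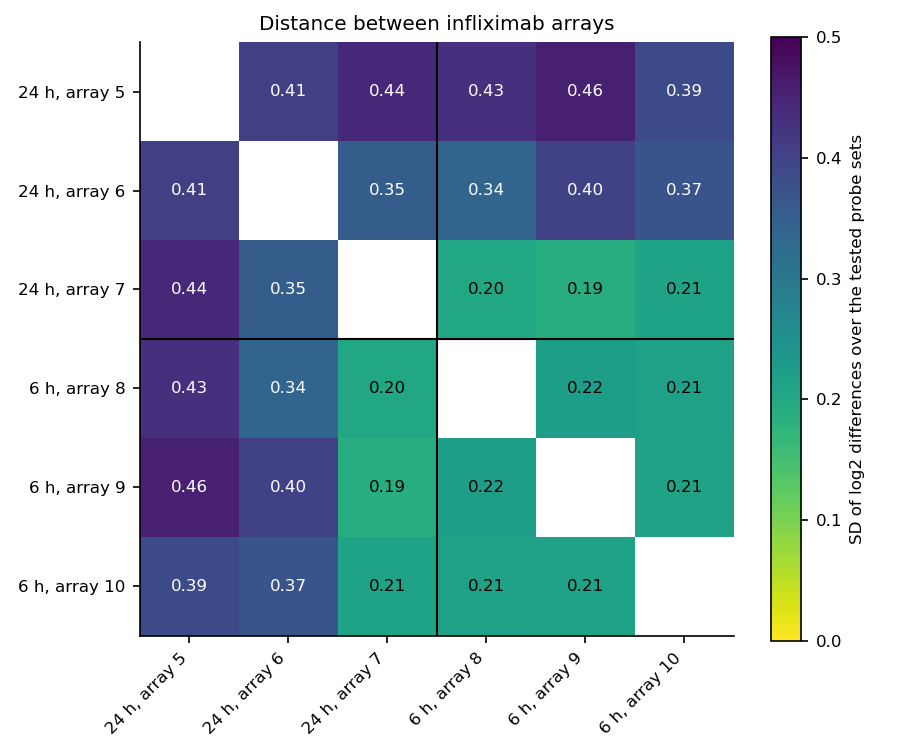
Distance between each pair of the 6 infliximab arrays, as the SD of their log2 differences over 28897 tested probe sets (colour and printed value). Rows and columns run from the 24 h arrays 5 to 7 to the 6 h arrays 8 to 10, with a line between the times. Array 7 lies at 0.19 to 0.21 from the 6 h arrays, and arrays 5 and 6 lie at 0.34 to 0.46 from every other array.

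Among the 6 infliximab arrays, technical readouts moved with this split in part. The 18 probe sets of hybridisation spike-ins, RNAs added in known amounts, averaged 7.34, 7.52 and 7.65 on arrays 5, 6 and 7, against 7.71, 7.76 and 7.78 on arrays 8, 9 and 10. The 3′ minus 5′ difference of ACTB, a measure of RNA and labelling quality, was -0.14, 0.27 and -0.09 on arrays 5, 6 and 7, against 0.01, -0.09 and -0.11 at 6 h. That of GAPDH was -0.03, 0.24 and -0.07 on arrays 5, 6 and 7, against -0.01, -0.08 and -0.13 at 6 h. The poly-A control probe sets, RNAs added before labelling, averaged 5.85, 5.20 and 5.82 on arrays 5, 6 and 7, against 5.90, 5.95 and 5.98 at 6 h. Array 6 was the highest of the 6 in both 3′ measures and the lowest in poly-A controls, and array 5 the lowest in spike-ins. The 9 CDP870 and 0 h arrays held 7.23 to 7.72 for spike-ins, a range that holds arrays 5 and 6. They held 5.56 to 5.87 for poly-A controls, -0.12 to 0.03 for ACTB and -0.09 to 0.02 for GAPDH. Array 6 lay outside all 3 of these ranges, and array 5 just below that of ACTB. The part of these readouts in the differences below was not tested, apart from the fits with the spike-in level as a covariate. The myeloid genes LYZ, CEBPA, S100A8 and TLR2 reached percentiles of 99.1, 99.6, 98.4 and 93.9 of an array's probe sets. CD14, the monocyte co-receptor for lipopolysaccharide, reached a percentile of 52.1 and FCGR1A one of 44.5. Epithelial EPCAM and KRT18 lay high at both times, with percentiles of up to 91.2 and 98.0, whereas CDH1 and KRT14 stayed below the array medians. Markers of other cells were split in the same way. The T cell genes CD3D, CD3E and CD5 reached percentiles of 69.7, 64.5 and 65.2, and CD3G and CD2 stayed below the medians. The B cell genes CD79A, CD79B and PAX5 reached 69.3, 72.0 and 77.8, and MS4A1 stayed below. The fibroblast gene COL1A1 reached 82.0 and DCN 51.2, and COL1A2, COL3A1 and LUM stayed below. The summed log2 level of the 7 epithelial markers was 40.2, 40.7 and 40.5 on arrays 5, 6 and 7, against 39.5, 41.3 and 39.9 on arrays 8, 9 and 10, so the times overlapped. Those of the 5 T cell, 4 B cell and 5 fibroblast markers overlapped too, at 14.89 to 16.05, 15.19 to 15.65 and 13.32 to 13.45 at 24 h, against 15.34 to 15.78, 15.09 to 15.62 and 13.42 to 14.69 at 6 h. The sum of the 12 myeloid markers was 80.89, 77.8 and 75.96 on arrays 5, 6 and 7. At 6 h it was 75.96, 75.86 and 77.22 on arrays 8, 9 and 10, so the times overlapped but arrays 5 and 6 were the highest. In bulk RNA, fewer cells of a type and less RNA per cell cannot be told apart.

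Among genes called against 0 h at both times (limma adjusted p under 0.05), the largest responses to infliximab were of similar size at each. ASNS, which encodes asparagine synthetase, lay at 8.82, 8.97 and 9.01 at 24 h, against 8.91, 9.04 and 8.85 at 6 h. In untreated cells at 0 h it lay between 5.59 and 5.87. The times overlapped, and the difference between them was 0.00 ± 0.11 (SE, n = 3 and 3), with a 95% interval of -0.23 to 0.23. DDIT4, which restrains mTORC1 under stress, lay at 9.15, 9.09 and 9.06 at 24 h, against 8.87, 9.11 and 9.08 at 6 h. The 0 h arrays held 6.26 to 6.46, and the times differed by 0.08 (interval -0.13 to 0.29). VEGFA, the vascular endothelial growth factor, lay at 7.37, 7.63 and 7.64 at 24 h, against 7.55, 7.48 and 7.55 at 6 h. Its difference of 0.02 had an interval of -0.33 to 0.37, against levels of 4.78 to 5.06 at 0 h. ALDH1L2, a mitochondrial folate enzyme, differed by 0.04 (interval -0.38 to 0.45), INHBE, an inhibin subunit, by 0.03 (-0.35 to 0.41), and CTH, cystathionine gamma-lyase, by -0.11 (-0.58 to 0.36).

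The promoters of ASNS and of CHAC1, a glutathione-degrading enzyme, are shown because both genes kept a high level at both times and hold a match to TGATGNAAN, a composite element that ATF4 and C/EBP factors can bind. The 100 bases around the match are given from RefSeq on GRCh38.p14, on the strand of the gene, with the match in capitals.
ASNS, chr7:97872423-97872522, minus strand: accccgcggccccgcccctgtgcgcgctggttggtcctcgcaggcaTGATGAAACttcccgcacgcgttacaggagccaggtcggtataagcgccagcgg
CHAC1, chr15:40953221-40953320, plus strand: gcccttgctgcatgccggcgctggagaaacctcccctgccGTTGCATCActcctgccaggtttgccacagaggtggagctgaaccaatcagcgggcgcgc
The ASNS match reads on the gene's strand and starts 68 bases before the annotated start of transcription, and the CHAC1 match reads on the opposite strand, 210 bases before it. Both strands of the 250 bases before each start were searched. A match was held by 867 of 27305 promoters in all (3.18%), by 176 of the 10902 tested genes with a promoter sequence (1.61%) and by 18 of the 418 genes called higher at both times that have one (4.31%). Of the 15 largest responders 12 had a promoter sequence and 3 held a match, the third being the long non-coding RNA LINC02806. A match is a description of these letters, and binding was not measured here.

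Smaller shifts between the times were seen in some responders, and none passed the threshold. RPS6KA2, a ribosomal S6 kinase, lay at 5.93, 5.94 and 5.14 at 24 h, against 4.96, 4.57 and 5.02 at 6 h. At 0 h it lay at 1.67 to 2.06. All 24 h arrays lay above all 6 h arrays, with array 7 nearest to them, and the difference was 0.82 ± 0.20 (SE; limma adjusted p = 0.300). A second probe set of this gene differed by 0.46 ± 0.15 with overlapping times (6.43, 6.66 and 6.03 at 24 h, against 6.09, 5.86 and 5.80 at 6 h). ATF5, a transcription factor of the stress response, lay at 9.04, 8.51 and 8.23 at 24 h, against 8.15, 7.94 and 8.14 at 6 h. The groups did not overlap, but array 7 lay just above the highest 6 h array, and the difference was 0.52 ± 0.16. LINC02806 lay at 4.19, 4.69 and 4.18 at 24 h, against 3.53, 3.63 and 3.90 at 6 h, a difference of 0.67 ± 0.16 without overlap. PSAT1, of serine synthesis, lay at 9.03, 8.34 and 9.35 at 24 h, against 9.19, 9.43 and 9.37 at 6 h. Here arrays 5 and 6 were the lowest of the 6 while array 7 lay among the 6 h arrays, and the difference was -0.42 ± 0.18 (adjusted p = 0.392). TM6SF1 lay at 5.65, 5.78 and 6.73 at 24 h, against 6.31, 6.57 and 6.15 at 6 h, with arrays 5 and 6 lowest and array 7 highest of the 6.

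The genes most reduced among those called lower at both times were likewise close at each. Genes called lower at 1 time only, such as SLC19A1 below, are left out by that choice. EIF5, a translation initiation factor, lay at 7.66, 7.44 and 7.77 at 24 h, against 7.56, 7.93 and 7.84 at 6 h, with 8.58 to 8.94 at 0 h. SDF2L1, which works with chaperones in the endoplasmic reticulum, lay at 6.74, 6.65 and 6.66 at 24 h, against 6.52, 6.63 and 6.85 at 6 h, with 7.44 to 7.88 at 0 h. In both genes the times overlapped, and the differences were -0.15 (interval -0.41 to 0.10) and 0.02 (-0.23 to 0.27). Among the 10 strongest decreases called at both times, SPATA31C2 alone had its whole interval on one side of 0, at 0.53 (0.17 to 0.88). It lay at 2.69, 2.99 and 2.79 at 24 h, against 2.31, 2.16 and 2.42 at 6 h, and at 3.23 or more at 0 h. MRPS12, a mitochondrial ribosomal protein, had no overlap either (4.89 to 5.23 at 24 h, against 5.27 to 5.29 at 6 h), with an interval of -0.48 to 0.07 that spans 0.

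**Figure D2:**
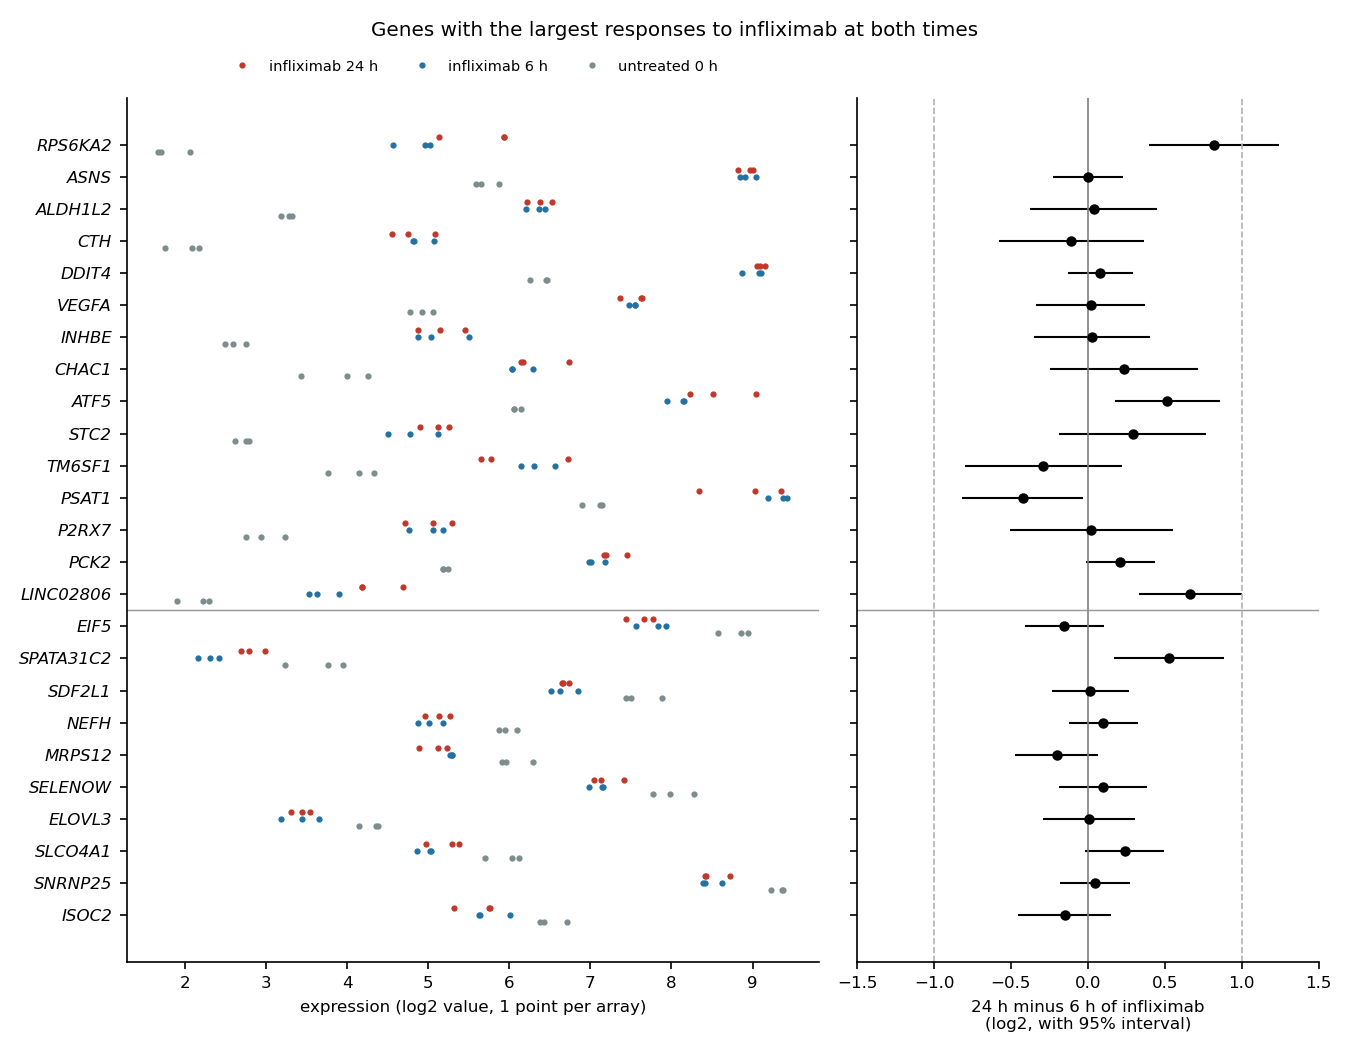
Left, log2 values of the 15 genes with the highest (above the line) and the 10 with the lowest response to infliximab over both times. All were called in 1 direction against 0 h at both times. Each point is 1 array of infliximab 24 h (red), infliximab 6 h (blue) or untreated 0 h (grey). Right, the 24 h minus 6 h difference of each gene with its 95% interval, with dashed lines at -1 and 1. For ASNS, DDIT4 and VEGFA the red and blue points coincide far from the grey ones, and only the intervals of RPS6KA2 and LINC02806 reach past 1.

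In all, 522 genes were called higher and 393 lower against 0 h at both times (limma adjusted p under 0.05). Of all tested probe sets 6.57% were called at 24 h (3.78% higher, 2.79% lower) and 8.42% at 6 h (4.02% higher, 4.4% lower). Both comparisons share the 0 h arrays, and calls in 1 direction at both times chose the genes. That choice leaves out genes called at 1 time only, so it favours small differences between the times. The differences below are a description of the genes chosen. Among the higher genes the median difference was 0.01, with a range of -0.72 to 0.82, and among the lower genes 0.01, with a range of -0.34 to 0.53. The 95% interval lay within 1 of 0 for 518 of the 522 and for all 393, and within 0.5 for 400 and 377. Over all tested probe sets 96.7% lay within 1 and 70.8% within 0.5, so these shares are read against a high background. Of the 36 tested genes in a list of ATF4 targets and amino acid genes, 31 were called higher and 1 lower than 0 h at 24 h, and 29 higher and 1 lower at 6 h. These counts stand against 3.78% and 4.02% of all probe sets called higher at 24 h and at 6 h. The median change from 0 h was 1.34 at 24 h and 1.15 at 6 h, the median of the gene-wise differences between the times was 0.08, and all 36 intervals lay within 1 of 0. The smallest p in it were those of ATF5 and of 3 transporters. SLC7A5, the large neutral amino acid transporter, lay at 8.93, 9.0 and 8.55 at 24 h, against 8.43, 8.46 and 8.33 at 6 h (0.42 ± 0.14). SLC1A4, a transporter of serine and alanine, lay at 7.84, 7.91 and 7.53 at 24 h, against 7.37, 7.38 and 7.46 at 6 h (0.36 ± 0.11). In both the 24 h arrays lay above all 6 h arrays, with array 7 the nearest, and neither passed the threshold.

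Across all 28897 probe sets, limma called 0 between 24 h and 6 h of infliximab (0%), and the smallest adjusted p was 0.300. At an unadjusted p under 0.05 there were 3437 (11.9%), of which 2298 were higher and 1139 lower at 24 h. The split moved to 3034 and 726 with array medians set equal, and to 1988 and 1442 after quantile normalization again. The count at that p fell to 1569 (1173 higher, 396 lower) with the spike-in level as a covariate. It was 1914 (1267 higher, 647 lower) when only the infliximab arrays were fitted. The values of the times did not overlap in 3067 probe sets (10.6%), with 1638 higher (5.67%) and 1429 lower (4.95%). A difference beyond 1 was found in 87 probe sets, 10 higher and 77 lower. That count was 444 (168 higher, 276 lower) without array 7, 132 (8 higher, 124 lower) without array 8 and 49 (4 higher, 45 lower) without array 9. It was 13, all lower, with the spike-in level as a covariate. The median SE was 0.13, and the unadjusted 95% interval reached a median of 0.28 to each side. Smaller differences could not be resolved for a typical probe set even before adjustment. The interval lay within 1 of 0 for 27935 probe sets.

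These counts rested on which 24 h arrays were in the fit. Without array 7, which leaves arrays 5 and 6 against the 6 h arrays, limma called 2462 probe sets (8.52%), 1831 higher (6.34%) and 631 lower (2.18%). Arrays 5 and 6 were known to stand apart, so that count describes them and is no separate test of time. The count was 719 when the spike-in level was a covariate in that fit, 298 when only the infliximab arrays were fitted, and 1127 with array weights. With array 7 alone against the 6 h arrays, assumed to vary like the other groups, 0 probe sets were called, 709 had an unadjusted p under 0.05, and 1 differed by more than 1.

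The 5 genes with the smallest p in each direction all had values without overlap. That layout by definition puts array 7 on the same side of the 6 h arrays as arrays 5 and 6. A choice by small p favours separated values, so the layout only describes the genes chosen. SLC19A1, the reduced folate carrier, lay at 4.79, 4.56 and 4.41 at 24 h, against 3.92, 4.11 and 3.87 at 6 h (0.62 ± 0.11; limma adjusted p = 0.300). The 0 h arrays held 4.63 to 4.70, so this gene was lower than 0 h at 6 h (-0.70, limma adjusted p = 0.0012) and near it at 24 h (-0.08). BCR, a signalling protein best known from its leukaemic fusion with ABL1, had the same layout, with 4.72, 4.69 and 4.54 at 24 h, against 4.14, 4.15 and 3.99 at 6 h and 4.60 to 4.78 at 0 h. USP19, a deubiquitinase, lay at 4.77, 4.87 and 4.31 at 24 h, against 3.93, 4.08 and 3.92 at 6 h, with array 7 nearest to the 6 h arrays. On the lower side, ITGB3, the integrin beta 3 chain, lay at 3.20, 3.23 and 3.25 at 24 h, against 3.64, 3.68 and 3.5 at 6 h (-0.38 ± 0.08). TTPAL lay at 4.88, 4.76 and 4.8 at 24 h, against 5.25, 5.20 and 5.19 at 6 h (-0.40 ± 0.09). The spread within each time was small for this pair, and the adjusted p was 0.300 for each. The others were KCNJ5-AS1 (0.69) and TECPR2 (0.86) on the higher side and SLC25A30 (-0.71), CCDC13 (-0.53) and TAPT1 (-0.56) on the lower. Several of these levels were low, beside array medians of 2.93 to 3.07. Group means ran from 2.8 to 3.63 for KCNJ5-AS1, SLC25A30 and TAPT1, and from 3.23 to 3.96 for ITGB3 and CCDC13.

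The direct target and its receptors showed no difference past the threshold. TNF lay at 4.61, 4.25 and 4.08 at 24 h, against 4.49, 4.08 and 4.27 at 6 h (0.03 ± 0.19), and the times overlapped. TNFRSF1A, the widely expressed receptor, lay at 8.15, 7.98 and 7.35 at 24 h, against 7.58, 7.50 and 7.78 at 6 h (0.21 ± 0.16). Arrays 5 and 6 were above and array 7 below every 6 h array. TNFRSF1B, the second receptor, lay at 6.81, 6.72 and 6.28 at 24 h, against 6.33, 6.22 and 6.35 at 6 h (0.30 ± 0.12). The Fc receptor genes FCGR2A (-0.09 ± 0.11) and FCGRT (0.00 ± 0.09) overlapped between the times, and FCGR1A was below the level for testing. ITGAL, the alpha chain of the integrin LFA-1, lay at 7.87, 7.31 and 6.68 at 24 h, against 6.63, 6.52 and 6.77 at 6 h (0.65 ± 0.21), with array 7 among the 6 h arrays.

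Arrays 5 and 6 were both above arrays 7 to 10 in 5148 probe sets (17.8%) and both below them in 3610 (12.5%). The gap between the nearest arrays exceeded 0.5 in 413 probe sets of 334 genes upward (1.43%) and in 125 probe sets of 101 genes downward (0.433%). It exceeded 1 in 10 (0.0346%) and 11 (0.0381%). These arrays were singled out by their values, so the genes below are a description without a test. In the 413 probe sets array 5 lay a median of 0.89, array 6 0.80 and array 7 0.03 above the mean of the 6 h arrays, and the 0 h arrays lay 0.38 above it. In the 125 probe sets array 5 lay a median of -0.96, array 6 -1.03 and array 7 0.02 from that mean, and the 0 h arrays -0.43. Arrays 5 and 6 were beyond all of the 9 CDP870 and 0 h arrays in 310 of the 413 and in 74 of the 125. All of those 9 arrays lay in the gap in 114 of the 413 (27.6%) and in 10 of the 125.

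The widest upward gap was that of SUPT6H (1.37). This histone chaperone of transcript elongation lay at 6.75, 6.17 and 4.76 on arrays 5, 6 and 7, against 4.62, 4.43 and 4.8 at 6 h. Its 24 h minus 6 h difference was 1.28 ± 0.34 (limma adjusted p = 0.300), and all 3 of its tested probe sets had arrays 5 and 6 on top. FASN, fatty acid synthase, lay at 9.05, 8.01 and 6.68 on arrays 5, 6 and 7, against 6.67, 6.28 and 7.01 at 6 h (1.26 ± 0.46). The 0 h arrays held 7.17, 8.24 and 7.21, so 1 of these lay between arrays 5 and 6. GAA, the lysosomal acid alpha-glucosidase, lay at 7.30, 6.98 and 5.79, against 5.73, 5.73 and 5.89 at 6 h, and the 0 h arrays lay at 5.80 to 6.22. SMARCA4, the ATPase of a chromatin remodelling complex, lay at 7.66, 7.74 and 6.67, against 6.55, 6.5 and 6.68 at 6 h, and 6 of its 7 tested probe sets had arrays 5 and 6 on top. In each of these genes array 7 fell within the 6 h range. The remaining genes, in falling order of the gap, were PPP1R10, a nuclear subunit of protein phosphatase 1 (gap 1.15), PNPLA6, a phospholipid esterase (1.06), BAG6, a chaperone (1.03), TSC2, an inhibitor of mTORC1 (1.03), VARS1, valyl-tRNA synthetase (1.02), PIEZO1, a mechanosensitive channel (1.02), USB1, an exonuclease of U6 RNA (0.99), and OBSL1, a cytoskeletal adaptor (0.98). Of the 2 tested probe sets of PIEZO1, 1 had arrays 5 and 6 on top and the other had both lowest, and 1 of the 7 of SMARCA4 had both lowest. For FASN, PPP1R10 and VARS1 only 1 of 2 tested probe sets had arrays 5 and 6 on top, and for OBSL1 3 of 6.

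The widest downward gap was that of TM9SF3, a multi-pass membrane protein (1.5). It lay at 1.75, 1.78 and 3.71 on arrays 5, 6 and 7, against 3.28, 3.59 and 3.30 at 6 h. CD164, a sialomucin of haematopoietic cells, lay at 6.81, 6.46 and 8.19, against 8.16, 8.39 and 8.11 at 6 h, and 7.01 to 7.81 at 0 h. All 3 of its tested probe sets had arrays 5 and 6 lowest, and array 7 lay inside the 6 h range. TANK, a regulator of TRAF and NF-kappaB signalling, lay at 3.28, 2.81 and 4.69, against 4.61, 4.74 and 4.62 at 6 h. SFPQ, a splicing and paraspeckle protein, lay at 2.43, 5.06 and 6.75, against 6.09, 6.90 and 6.44 at 6 h. Its drop was far larger on array 5 than on array 6, and only 1 of its 5 tested probe sets had both lowest, with 1 that had both on top. For APLP2, an amyloid precursor-like protein, 2 of 8 probe sets had both lowest and 3 had both highest, so the layout depended on the probe set. The others were TWF1, an actin-binding protein (gap 1.10), PRKCB, a protein kinase C (1.09, with 1 of 6 probe sets lowest and 1 on top), ARL2BP (1.07), TFG, of export from the endoplasmic reticulum (1.04), C5orf15 (1.01), NUP50, a nuclear pore protein (0.99), and SUCLG2, a succinyl-CoA ligase subunit (0.94). Only 1 of 2 tested probe sets of ARL2BP and of C5orf15 had both lowest, and 2 of 4 of TM9SF3. Array 7 lay above the 6 h mean by 0.74 for SUCLG2, with an interval of 0.02 to 1.46, by 0.41 for APLP2 and by 0.32 for TM9SF3, in which it was the highest of the 6.

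**Figure D3:**
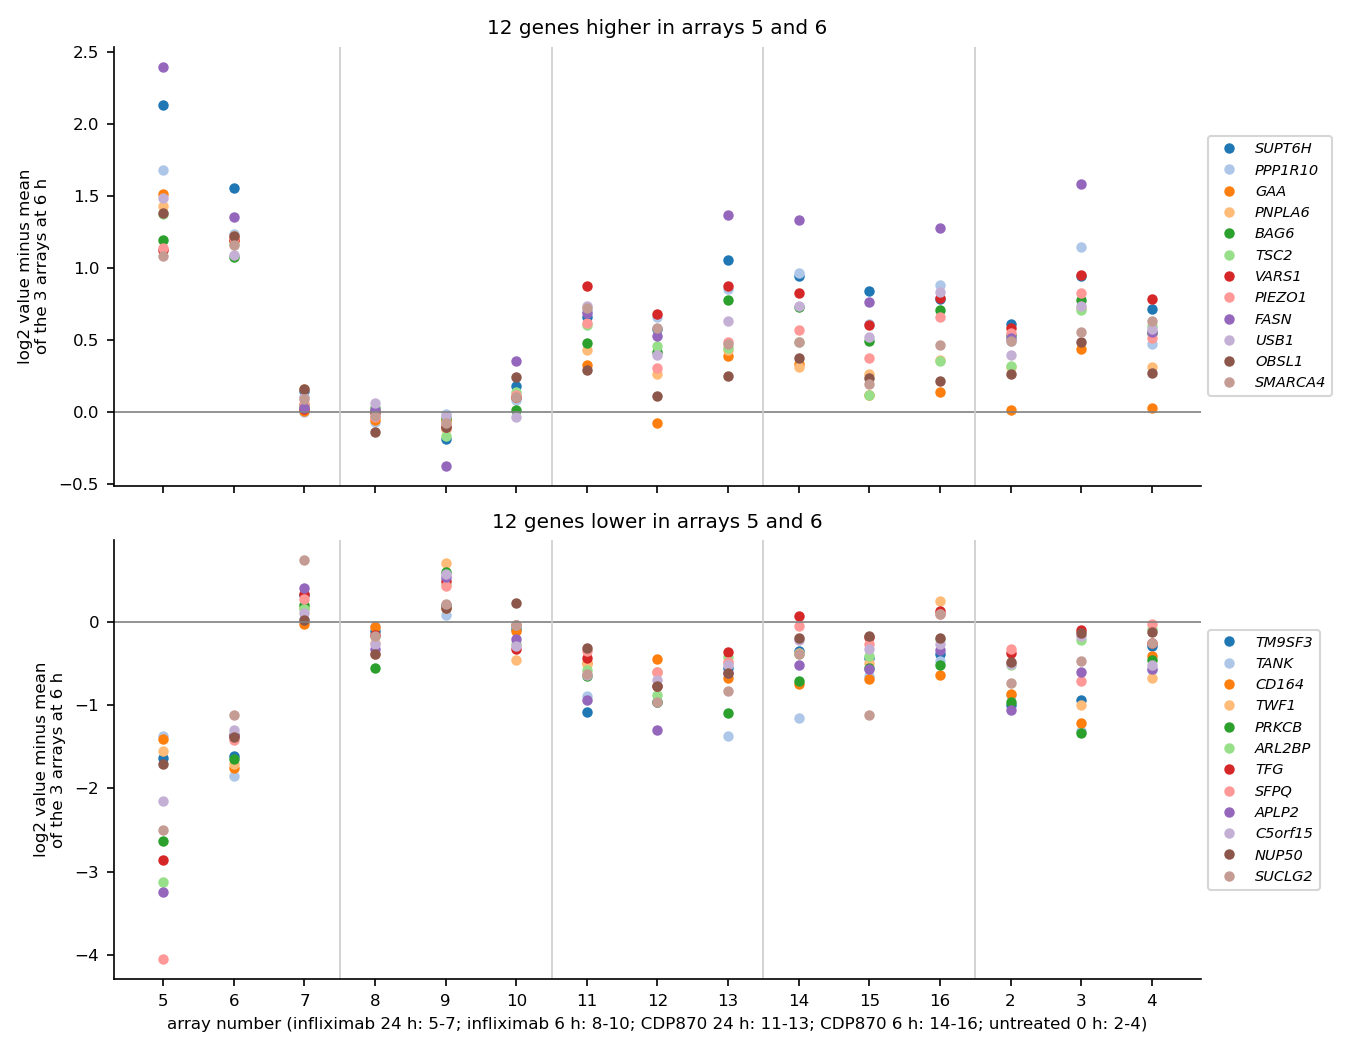
The 12 genes with the widest gap between arrays 5 and 6 and arrays 7 to 10, upward (top) and downward (bottom), as the log2 value on each of the 15 arrays minus the mean of the 3 infliximab 6 h arrays, with 1 colour per gene. In the top panel array 7 lies near 0 with the 6 h arrays. In the bottom panel it lies at or above 0 for most genes, by up to 0.74 for SUCLG2, and most CDP870 and 0 h arrays lie between 0 and arrays 5 and 6.

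Many of these genes had other probe sets on the array. Of the 334 genes with an upward gap over 0.5, 222 had several tested probe sets, 148 had another with arrays 5 and 6 on top and 12 had one with both lowest. Of the 101 genes with a downward gap, 98 had several, 59 had another with both lowest and 12 had one with both on top. The upward genes had promoters, here 250 bases before to 50 after the start, richer in G and C, with a median of 69.3% over 286 promoters, against 65.2% over 84 promoters of the downward genes and 65.0% over the 10902 of all tested genes. On chromosomes 16, 17, 19 and 22, which are rich in genes and in G and C and were picked after the values were seen, lay 107 of the 334 upward genes (32.0%), 8 of the 101 downward genes (7.92%) and 2885 of 13595 tested genes (21.2%). The median genomic span was 33.5 kb for upward, 35.2 kb for downward and 26.2 kb for all tested genes. The TGATGNAAN match of ASNS was held by 1 of 286 upward and 0 of 84 downward promoters. No test was made of these features, and their part in the split of the arrays was not tested.

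Arrays 5 and 6 also differed from each other, as the 721 probe sets that differ by more than 1 between them show. Array 5 was above the other 5 infliximab arrays by more than 1 in 106 probe sets and below them in 176. Array 6 was above in 0 and below in 163, and none of arrays 7 to 10 had a probe set beyond the other 5 by that much. The genes in this paragraph were chosen after their values were seen. RHEB, the GTPase that activates mTORC1, lay at 1.21, 5.75 and 6.56 on arrays 5, 6 and 7, against 6.07, 6.42 and 5.96 at 6 h, so array 5 alone was low. NUP43, a nuclear pore protein, lay at 5.07, 1.73 and 5.5, against 5.07, 5.84 and 5.72 at 6 h, so array 6 alone was low. The gene of the myeloid transcription factor PU.1, SPI1, ranged from 6.54 to 8.86 at 24 h, against 6.16 to 6.97 at 6 h, with the 8.86 on array 5 and 6.59 on array 6.

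Among the gene lists, cholesterol and fatty acid synthesis had the highest share of genes with arrays 5 and 6 on top, at 11 of 17 tested genes (64.7%, against 17.8% of all probe sets and 20.9% of all tested genes at 1 probe set each), with 1 below. SREBF2, the main activator of cholesterol synthesis genes, lay at 7.48, 7.24 and 6.53 on arrays 5, 6 and 7, against 6.26, 6.25 and 6.31 at 6 h (0.81 ± 0.18; limma adjusted p = 0.300). SREBF1, its relative for fatty acid synthesis, lay at 6.27, 6.13 and 5.30, against 5.11, 5.23 and 5.16 at 6 h (0.73 ± 0.19). In both all 24 h arrays lay above the 6 h arrays, array 7 by far less than arrays 5 and 6. Over the list array 5 lay a median of 0.19, array 6 0.33 and array 7 -0.05 from the 6 h mean, and the median difference between the times was 0.13, against 0.01 over all probe sets. None of its genes passed the threshold, and 7 were called higher without array 7, against 6.34% of all probe sets. That fit sets arrays 5 and 6, whose values also put this list first, against the 6 h arrays. The 7 calls therefore describe the same values again.

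Other lists with large shares of genes on top on arrays 5 and 6 were the metallothioneins, with 4 of 7 (57.1%), TNF and its receptor signalling, with 10 of 21 (47.6%), glycolysis and hypoxia, with 10 of 27 (37.0%), integrins and adhesion, with 7 of 19 (36.8%), and Fc gamma receptors and their signalling, with 5 of 14 (35.7%). In the TNF list, TNIP1, an inhibitor of NF-kappaB signalling, lay at 6.92, 6.70 and 6.23 at 24 h, against 6.03, 6.23 and 6.12 at 6 h (0.49 ± 0.16). The kinase gene IKBKB lay at 6.16, 6.29 and 5.92 at 24 h, against 5.83, 5.73 and 5.89 at 6 h (0.31 ± 0.12). Array 7 lay at or just above the top of the 6 h range in both. Of the 27 glycolysis and hypoxia genes 13 were called higher than 0 h at 24 h and 6 at 6 h, against 3.78% and 4.02% of all probe sets, but none passed the threshold between the times. NDRG1, a hypoxia-induced gene, lay at 7.74, 7.48 and 6.93 at 24 h, against 6.70, 6.98 and 6.96 at 6 h (0.50 ± 0.16), with array 7 among the 6 h arrays. SLC2A3, a glucose transporter, lay at 6.83, 6.89 and 6.52 at 24 h, against 5.96, 6.65 and 6.09 at 6 h (0.51 ± 0.16), again with overlap. Over this list array 5 lay a median of 0.21, array 6 0.21 and array 7 0.00 from the 6 h mean.

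Some lists leaned the other way or hardly moved. Of 15 antioxidant genes 5 had arrays 5 and 6 lowest (33.3%, against 12.5% of all probe sets) and 1 had both on top. GCLM, of glutathione synthesis, lay at 6.89, 6.72 and 7.26 at 24 h, against 7.34, 7.29 and 7.31 at 6 h (-0.36 ± 0.11), and NQO1, a quinone reductase, differed by -0.23 ± 0.11. Of 16 cytosolic ribosomal protein genes 5 had both lowest and 0 both on top, by small amounts, since the differences ran from -0.07 to 0.06. All intervals lay within 0.5 of 0 for these 16, for the 23 proteasome genes and for the 22 mitochondrial ribosomal protein genes. Of 29 DNA replication genes 9 were called lower than 0 h at 24 h and 12 at 6 h, against 2.79% and 4.4% of all probe sets, with a median difference of 0.01 between the times. Of 20 type I interferon response genes 5 were called higher than 0 h at each time, against 3.78% of all probe sets at 24 h and 4.02% at 6 h, with a median difference of 0.02.

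**Figure D4:**
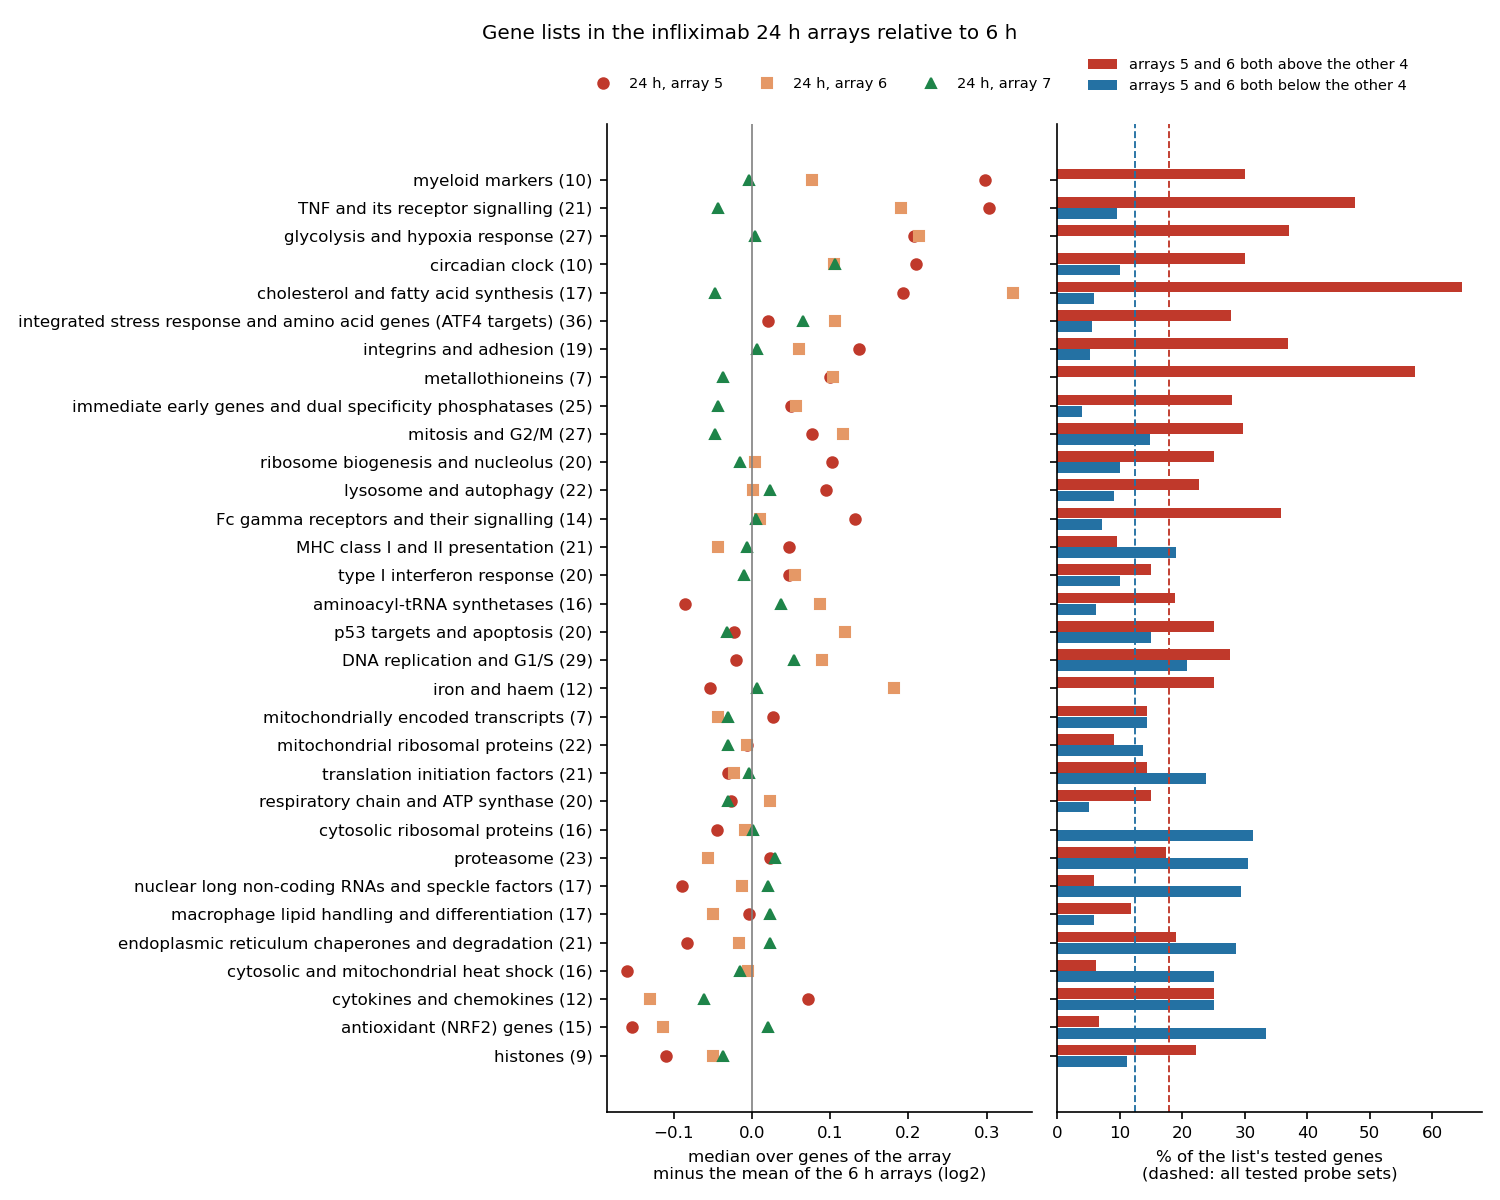
Gene lists with at least 7 tested genes (number in brackets), ordered by their median 24 h minus 6 h difference. Left, the median over genes of each 24 h array minus the mean of the 6 h arrays (log2); right, the share of genes with arrays 5 and 6 both above (red) or both below (blue) the other 4 infliximab arrays, with dashed lines at 17.8% and 12.5% for all tested probe sets. Array 7 lies between -0.06 and 0.11 in the lists shown, and cholesterol and fatty acid synthesis reaches 64.7%.

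Whether the change between the times differed between the agents was tested as an interaction, the infliximab difference minus the CDP870 difference. It called 0 of 28897 probe sets (0%), with 2642 at an unadjusted p under 0.05 (9.14%) and a smallest adjusted p of 0.365. CDP870 at 24 h against 6 h gave 0 calls (0%) and 1437 at an unadjusted p under 0.05. MICAL2, an actin-oxidising enzyme, lay at 4.93, 5.06 and 4.79 at 24 h of infliximab, against 4.61, 4.42 and 4.18 at 6 h. With CDP870 it lay at 4.29, 4.60 and 4.32 at 24 h, against 4.94, 4.82 and 4.91 at 6 h. Both agents gave groups without overlap, in opposite directions, and the interaction was 1.01 ± 0.20 (limma adjusted p = 0.365). ZBTB4, a methyl-CpG-binding zinc finger protein, had 0.48 ± 0.11 with infliximab and -0.37 ± 0.11 with CDP870, an interaction of 0.86. For UBN1, a histone chaperone subunit (interaction -0.86), CHD4, a chromatin remodeller (-0.81), and THRAP3, a splicing-associated protein (-0.70), most of the difference came from CDP870. Other tested probe sets of these genes gave another picture, with interactions of 0.53 for MICAL2, -0.10 for ZBTB4, 0.58 for UBN1, 0.25 and 0.54 for CHD4, and -0.23 and 0.21 for THRAP3. Among these 5 genes, only the other probe set of MICAL2 and 1 of THRAP3 had the sign of the first. Of the other genes the rule took, 3 kept 1 sign, with smaller values on the other probe sets. These were BCR (0.73, with 0.42 and 0.33), TIMM17A (-0.67, with -0.19 and -0.08) and TGS1 (-0.71, with -0.07 and -0.39). ITPRIP did not (0.71, with -0.05), and PRRT3 had 1 tested probe set. UBN1 differed by -0.14 ± 0.11 between the times of infliximab and by 0.72 ± 0.11 between those of CDP870. Without array 7 the interaction called 920 of the 28897 probe sets, 772 higher and 148 lower. That fit leaves arrays 5 and 6, which were known to stand apart, as the infliximab 24 h group. The count therefore describes them and is no separate test of the agents.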

How the data were processed

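The deposited values are log2 probe set summaries by the authors, 1 column per array, from 0.17 to 11.94. Per the submitters' processing notes GCRMA and GCOS 1.3.0 were used, with no role or order; further steps were not stated. Array medians lay between 2.93 and 3.07. The number of arrays limits the precision. The series' design text calls the 3 arrays per group biological replicates, and p-values reflect only the spread among them.

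The 15 arrays entered 1 limma fit (version 3.58.1, R 4.3.3; lmFit, contrasts.fit and eBayes), with a mean for each group. All tests are two-sided, with Benjamini-Hochberg adjustment over the 28897 tested probe sets, and a call is an adjusted p under 0.05. The fit was tested on simulated data. Errors are standard errors, and intervals are unadjusted 95% intervals. Probe sets with 1 symbol in the platform annotation (41091, of which 41037 matched RefSeq) were named. A list gene is represented by the tested probe set of highest mean.

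The named genes are the 5 smallest p in each direction for 24 h against 6 h and for the interaction, the 15 highest and 10 lowest responses against 0 h at both times, the 12 widest gaps in each direction, up to 4 genes per list, and fixed look-ups (TNF, its receptors, Fc receptors and known responders), not all printed. Members, lists and rules were chosen with earlier results of these data known. Alternatives changed the normalization, filter, fit, weights, covariate and arrays. Figures used matplotlib 3.10.9.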

Additional observations from a re-analysis of the deposited data

How the results depend on the processing

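The count of probe sets called between 24 h and 6 h of infliximab was 0 in every alternative with array 7 or without only array 5, 6, 8, 9 or 10, so leaving out 1 array gave 0 to 2462, the 2462 without array 7. In fits without array 7 added after seeing the data, it was 719 with the spike-in level as a covariate, 298 with only the infliximab arrays, 2255 (1427 higher, 828 lower) after quantile normalization again, 2859 (2375 higher, 484 lower) after median centring and 1127 with array weights. The interaction stayed at 0 calls except without array 7, so leaving out 1 array gave 0 to 920. The number of probe sets with an interval within 1 of 0 was 53680 with no filter (of 54613), 13963 with the stricter filter (above the 75th percentile, of 14622) and 13447 on gene means (of 13607), where the number tested differs. Leaving out 1 array gave 27157 to 28269, and 20465 lay within 0.5. The number of probe sets that differed by more than 1 was 13 with the spike-in level as a covariate, 4 on gene means (of 13607) and 1 in each fit without arrays 5 and 6, and leaving out 1 array gave 49 to 444; these fits were applied to this count after seeing the data. No named gene was called between the times, and of their 1210 values under the alternatives 46 passed the threshold, all without array 7. A further 96 moved by more than the SD within groups, 46 in each of the 2 fits without arrays 5 and 6 and 4 with the spike-in covariate. The named genes include those chosen for the widest gaps between arrays 5 and 6 and arrays 7 to 10. That choice favours a call without array 7 and a shift without arrays 5 and 6. The 46 calls and the 96 shifts therefore describe that choice in part and are no separate test. No paired analysis was possible because the array numbers run on from group to group and no 2 groups share one. With 3 arrays per group, differences under about 0.28 on the log2 scale could not be resolved for a typical probe set even before adjustment. Larger ones also went uncalled, such as 0.62 for SLC19A1 (limma adjusted p = 0.300). The 0 calls therefore do not bound the differences at 0.28.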

Other observations

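Further lists and genes are given here, some from lists already described, and none passed the threshold between the times. Of 10 circadian clock genes the median difference was 0.13, and array 7 lay at 0.11 from the 6 h mean, close to array 6 at 0.11 and below array 5 at 0.21. The 6 h arrays themselves lay between -0.13 and 0.09 from the mean of their other 2, so these values are of about the size of their spread. The 7 metallothionein genes, which bind zinc and copper, had a median difference of 0.06, and 4 of them had arrays 5 and 6 on top (57.1%) by small amounts. MT1G lay at 7.57, 7.46 and 7.38 at 24 h, against 7.57, 7.51 and 7.59 at 6 h, and was called lower than 0 h at both times (limma adjusted p = 0.0105 at 24 h and 0.0269 at 6 h). In the Fc gamma receptor list of 14 genes, INPP5D, the inositol phosphatase SHIP1, lay at 8.63, 8.5 and 7.43 at 24 h, against 7.48, 7.24 and 7.55 at 6 h (0.76 ± 0.23, limma adjusted p = 0.300), with array 7 among the 6 h arrays. Among integrins ITGA5, a fibronectin receptor chain, lay at 8.14, 7.98 and 7.12 at 24 h, against 7.19, 7.06 and 7.36 at 6 h (0.54 ± 0.19), with the same layout. EPCAM, an epithelial adhesion molecule, lay at 6.46, 6.63 and 6.68 at 24 h, against 6.91, 6.99 and 6.70 at 6 h (-0.28 ± 0.10), with no overlap and no call. It lay at 5.99 to 6.06 at 0 h.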
